A study of Mus musculus with 2 samples.

Results

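The genes described here build the cell-cell junctions that hold epithelia together: the cadherins, the desmosomal cadherins (desmogleins and desmocollins), the armadillo proteins and alpha-catenins bound to their inner ends, the plakins that tie desmosomes to keratin filaments, and the junction-associated membrane proteins Perp and Epcam. They were chosen by gene name from a two-colour array, as every gene named Cdh, Dsg, Dsc or Pkp with a number, the numbered alpha-, beta- and delta-catenin genes, and Dsp, Jup, Ppl, Evpl, Perp and Epcam. This gave 48 genes on 71 probes, of 29923 genes on 39428 probes measured in all. All 48 symbols were found in the RefSeq annotation of the mouse genome.

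RNA came from ureters of NMRI mouse embryos at E18.5, and each of 2 arrays compared a pool of Pparg-cKO ureters (Pax2-cre/+; Pparg(fl/fl)) with a pool of control ureters. The controls carried at least 1 floxed Pparg allele (Pparg(fl/?) in the labels) and, per the methods, no cre. The first array held a female pair of pools and the second a male pair, with the dyes exchanged, so that sex, dye orientation and array cannot be told apart. The study describes Pax2-cre as active in the nephric duct, in the ureteric epithelium and in the collecting ducts, whereas the RNA was of whole ureters. The comparison asks how the loss of PPARG, a nuclear receptor, in the ureteric epithelium alters transcript levels.

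Cadherins are calcium-dependent adhesion proteins that bind their like on the neighbouring cell. Classical cadherins are joined through beta-catenin, p120 (Ctnnd1) and alpha-catenin to actin and form adherens junctions. Desmosomal cadherins are joined through plakoglobin (Jup), plakophilins and desmoplakin (Dsp) to keratin filaments and form desmosomes, which are prominent in stratified epithelia such as the urothelium and the epidermis.

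The values below are of 2 kinds. A signal is the scanner's background-subtracted, dye-normalised brightness of a probe in a pool, in arbitrary units, averaged over the spots that were not outliers, and signals of different probes cannot be set against each other. A log2 ratio is that of Pparg-cKO over control on an array (where a pair of values is given, the female comes before the male), after background correction and loess normalisation, and a mean is given ± the SD over the 2 arrays. A probe was tested where it lay well above background, by the scanner's own call, in at least 1 pool on both arrays, which left 40 of the 48 genes and 22499 of all genes. A gene passed the limma test at a Benjamini-Hochberg adjusted p below 0.05 over all genes tested. The fold rule takes its thresholds from the study's methods but applies them to the ratios and signals as processed here. A gene passed it where it differed at least 1.5-fold on each array, one way on both, and its brighter pool on each array reached a signal of 100 or more.

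The deposited ratios ran against the dye labels on both arrays, and directions are given here as deposited. This is also the direction in which the study describes its genes and tissue sections, and it is called likely, not settled: should the dye labels be correct, each higher and lower below would swap, with sizes and p-values as given. Pparg itself had signals of 6113 and 6688 in the control pools and of 12360 and 12930 in the Pparg-cKO pools, a log2 ratio of 0.97 ± 0.02 (SD, n = 2 arrays, limma adjusted p = 0.0373). The position of its probe was not set against the deleted exons, so that it does not check the direction. On each array 66.2% to 77.3% of the spots other than controls lay well above background in a channel, and no such spot was saturated. Markers of the ureter were bright in all 4 pools, with signals of 31200 to 41120 for Upk3a of the urothelium and of 44950 to 56270 for Acta2 of smooth muscle. Each pool was measured on 1 array, so p-values rest on the spread between a female and a male pair of pools.

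A few sequences show what the probes and promoters of these genes looked like. The Epcam and Jup probes are the only ones for these genes and lie in coding sequence. The Dsp probe shown is the dimmer of 2, also in coding sequence, and was near background in some pools, as described with the plakins. All are printed 5′ to 3′ from the array files with their mm9 positions, and none of their bases is marked.
Epcam, chr17:88048972-88049800, plus strand, across an intron: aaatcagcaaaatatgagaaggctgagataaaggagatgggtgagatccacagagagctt
Jup, chr11:100238038-100238097, minus strand: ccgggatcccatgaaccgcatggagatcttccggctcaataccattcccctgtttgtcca
Dsp, chr13:38285480-38286579, plus strand, across an intron: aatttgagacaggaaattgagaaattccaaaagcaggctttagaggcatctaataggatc

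The 250 bases before the start site are shown for Epcam and Dsp, an adhesion protein of whole epithelia and the desmosomal plakin, both of which had a positive log2 ratio on both arrays. They were read from RefSeq promoters of GRCm38.p6, which held 22 of the 48 genes. Capitals mark the letters CACCTG, the E-box that Snail and Zeb repressors of Cdh1 can bind, or the same box read on the other strand as CAGGTG. The letters AGGTCA, which nuclear receptors can bind, were searched on both strands too. The motifs do not overlap each other.
Epcam, chr17:87635729-87635978, plus strand: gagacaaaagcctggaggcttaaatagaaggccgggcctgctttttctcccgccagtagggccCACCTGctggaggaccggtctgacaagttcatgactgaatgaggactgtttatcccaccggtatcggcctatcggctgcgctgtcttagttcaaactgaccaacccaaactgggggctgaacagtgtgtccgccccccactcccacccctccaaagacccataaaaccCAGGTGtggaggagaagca
Dsp, chr13:38151044-38151293, plus strand: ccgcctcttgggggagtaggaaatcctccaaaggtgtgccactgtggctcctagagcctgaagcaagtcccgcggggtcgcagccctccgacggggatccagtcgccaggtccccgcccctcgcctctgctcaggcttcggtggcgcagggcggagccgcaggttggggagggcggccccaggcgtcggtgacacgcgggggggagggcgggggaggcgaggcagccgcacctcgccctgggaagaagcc
The Epcam window held the E-box at 187 and at 19 bases before the start site and no AGGTCA, and the Dsp window held neither motif. Over the genes of the group with a promoter, 4 of 22 windows held the E-box, or 18.2%, against 17.2% of all 32851 promoter windows, and 3 of 22 held AGGTCA, or 13.6%, against 14% of all. Both shares lay near those of all promoters, and a match is only a run of letters.

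The desmosomal cadherin Dsc2 passed both the limma test and the fold rule. Dsc2 encodes desmocollin 2, the desmocollin of simple and stratified epithelia alike. Its signal was 676 in the female control pool and 702 in the male control pool, against 1455 and 1454 in the Pparg-cKO pools, so that the pools of a genotype lay close together. The log2 ratio was 1.07 and 1.14, a mean of 1.10 ± 0.05 (SD, n = 2 arrays) or 2.15-fold, with a limma adjusted p of 0.0263. Computed from the deposited ratios instead, the mean was 1.08 and the adjusted p 0.533, with 0 genes called of all tested. The 4 spots of the probe, on chromosome 18 at 20189299 to 20189358 (mm9, minus strand), ranged from 0.97 to 1.27 for the female and from 1.00 to 1.26 for the male pair. In RNA of whole ureters, more cells of a type and more RNA per cell cannot be told apart.

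Dsc2 was the only gene of the group to pass the limma test, 1 of 40 tested in the upper direction, where 0.382% of all genes tested passed, and 0 of 40 passed in the lower direction, against 0.369% of all genes. At an unadjusted limma p below 0.05, 12 of the 40 genes were higher, Dsc1 and Dsc3 among them, against 4.31% of all genes, and none was lower, against 4.20%. Dsc1 and Dsc3 were tested on the male array through the Pparg-cKO pool alone. Among genes well above background in every pool, a limit chosen after seeing the data, 10 of 35 adhesion genes were higher, against 4.65% of all such genes. By the fold rule 3 genes were higher on both arrays, Dsc2, Pkp1 and Cdh16, of the 23 bright enough to be judged. Cdh16 reached a signal of 100 on the female array through the Pparg-cKO pool alone, with 89.7 in the control pool. Over all genes bright enough 0.792% were higher by this rule and 1.05% were lower, and 0 genes of the group were lower. The median log2 ratio over the 40 genes was 0.06 and 0.21, against -0.01 and 0.01 over all genes tested, of which 26.6% were higher and 26.2% lower on both arrays.

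**Figure D1:**
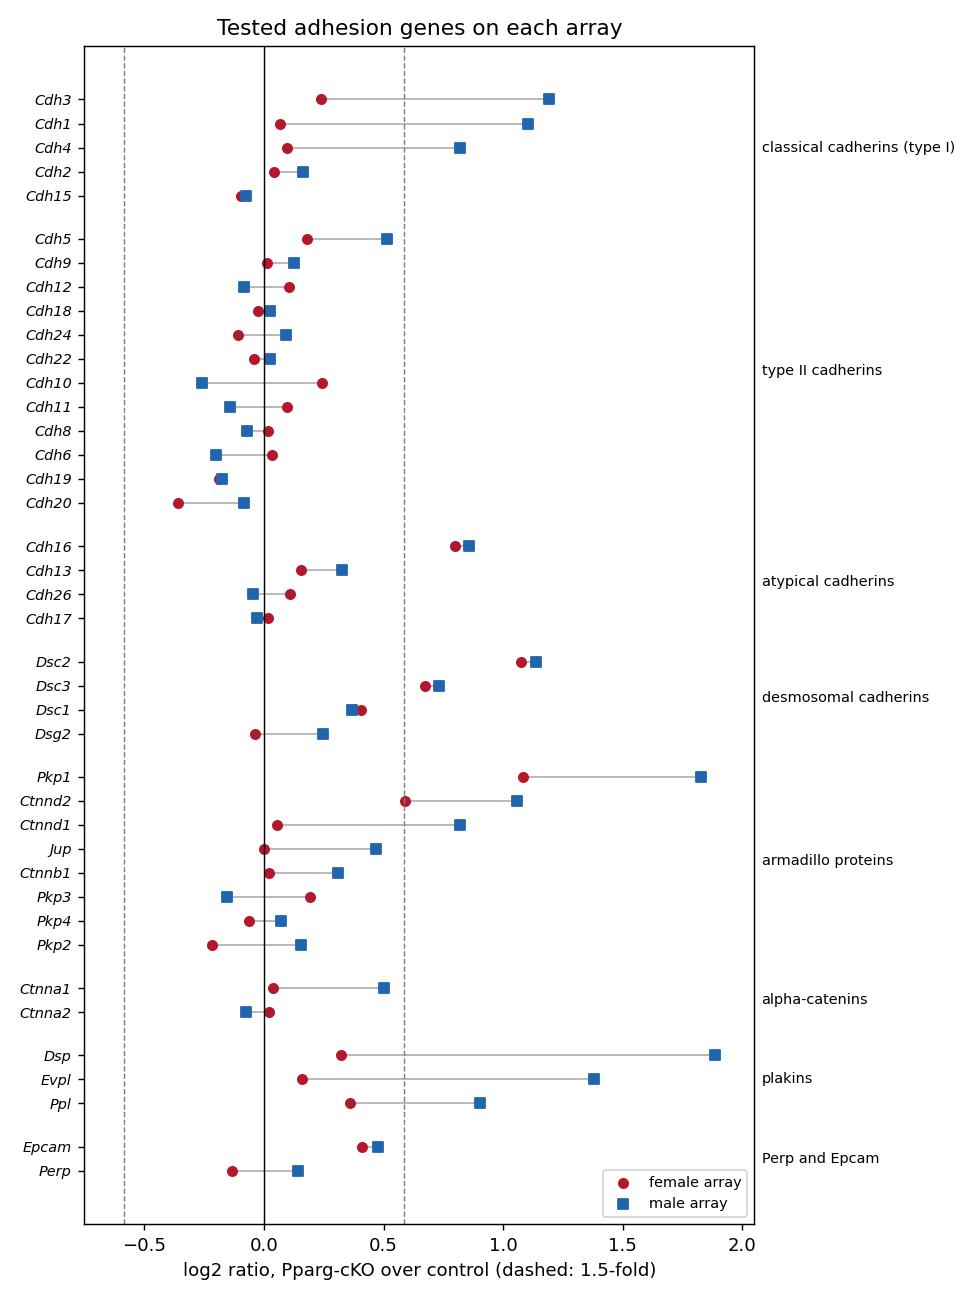
Log2 ratio of Pparg-cKO over control (x axis) for the 40 genes tested, by role, with the female array as circles, the male array as squares and a grey line joining them; dashed lines mark a 1.5-fold difference. Dsc2, Pkp1, Cdh16, Dsc3 and Ctnnd2 lie past the line on both arrays, the last 2 with signals too dim for the fold rule, while Dsp, Evpl, Ppl, Cdh1, Cdh3, Cdh4 and Ctnnd1 lie past it on the male array only.

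Of the 9 desmosomal cadherins 4 were tested, Dsc1, Dsc2, Dsc3 and Dsg2, and only Dsc2 passed a test. Dsc3, which encodes the desmocollin of basal layers in stratified epithelia, was dim, with signals of 3.50 and 5.48 in the control pools and of 16.7 and 19.6 in the Pparg-cKO pools. Its log2 ratio was 0.67 and 0.73 (mean 0.70 ± 0.04, SD, n = 2, limma adjusted p = 0.087), and its second probe gave 0.46 and 0.61. Dsc1, the desmocollin of the upper epidermis, had signals of 5.80 and 5.51 against 15.6 and 12.7, and its log2 ratio was 0.41 and 0.37 (mean 0.39 ± 0.03, SD, n = 2, limma adjusted p = 0.355).

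Dsc1 and Dsc3 were tested on the male array only through the Pparg-cKO pool, since the male control pool was not well above background, so that their male ratios are set against a pool at background and their values are a description. The offset added before the logarithm also pulls ratios of such dim probes towards 0. Of the 40 genes tested, Cdh18, Cdh22 and Cdh24 likewise passed the filter through a single pool on an array, with mean log2 ratios of 0.00, -0.01 and -0.01.

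Dsg2, the desmoglein of simple epithelia, had signals of 432 and 452 in the control pools and of 433 and 498 in the Pparg-cKO pools. Its log2 ratio was -0.04 and 0.25, with a limma adjusted p of 0.915. The other desmogleins, Dsg1a, Dsg1b, Dsg1c, Dsg3 and Dsg4, which mark stratified, keratinising epithelia and hair, were not tested, since none of their probes was well above background in a pool on both arrays. In the RefSeq annotation of GRCm38.p6 the desmosomal cadherins stand in a row on chromosome 18, in the order Dsc3, Dsc2, Dsc1, Dsg1c, Dsg1a, Dsg1b, Dsg4, Dsg3, Dsg2. No pattern along this row is read from these values, since 5 of its 9 genes were not tested.

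Of the armadillo proteins, the plakophilin Pkp1 differed most. Plakophilin 1 clusters desmosomal cadherins in stratified epithelia. Its signal was 159 in the female and 191 in the male control pool, and 380 and 678 in the Pparg-cKO pools. The log2 ratio was 1.08 and 1.83 (mean 1.46 ± 0.53, SD, n = 2), or 2.74-fold, and it passed the fold rule but not the limma test (adjusted p = 0.0685). Its 4 spots, on chromosome 1 at 137768027 to 137768086 (mm9, minus strand), ranged from 0.81 to 1.33 for the female and from 1.70 to 1.94 for the male pair, so that the arrays differed by more than the spots.

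The other plakophilins, which have wider roles in simple epithelia, heart and skin, gave no such difference. Pkp2 had log2 ratios of -0.22 and 0.15, Pkp3 of 0.19 and -0.16, and Pkp4 of -0.06 and 0.07, each of opposite sign on the female and the male array. Their limma adjusted p lay between 0.988 and 0.998, and their direction of the mean changed between processing settings for Pkp2 and Pkp4.

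Ctnnd2, the delta-catenin best known from neurons, missed the fold rule only through its dim signal on the female array. Its signals were 37.7 and 42.4 in the control pools against 65.2 and 102 in the Pparg-cKO pools. Its log2 ratio was 0.59 and 1.06 (mean 0.82 ± 0.33, SD, n = 2, limma adjusted p = 0.144), and a second, overlapping probe gave 0.41 and 1.02.

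The catenins of the adherens junction differed less. Ctnnb1, beta-catenin, which also carries Wnt signals, had signals of 8191 and 7759 in the control pools and of 8766 and 9537 in the Pparg-cKO pools, a log2 ratio of 0.02 and 0.31 (limma adjusted p = 0.807). Jup, plakoglobin, which is found in both kinds of junction, was dim, with 13.0 and 13.1 against 13.2 and 23.7, and the male Pparg-cKO pool alone stood above the rest. Its log2 ratio was 0.00 and 0.47, with a limma adjusted p of 0.765.

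Ctnnd1, p120-catenin, which keeps cadherins at the membrane, gave a ratio that depended on the probe. The brightest of its 3 probes had signals of 4296 and 4160 in the control pools and of 4653 and 6548 in the Pparg-cKO pools, a log2 ratio of 0.06 and 0.82 (limma adjusted p = 0.659). A second probe, on another transcript, gave -0.09 and -0.52, and the dimmest gave -0.06 and 0.15. The gene's direction is therefore not given.

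Among the alpha-catenins, Ctnna1, which links the complex to actin in epithelia, had a log2 ratio of 0.04 and 0.50, and the neuronal Ctnna2 of 0.02 and -0.07. The second Ctnna2 probe gave -0.52 and 0.13. Ctnna3 was not well above background.

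The brightest probes of all 3 plakins had positive log2 ratios on both arrays, with larger values on the male array, and none passed the limma test or the fold rule. Dsp encodes desmoplakin, the obligate link between desmosome and keratin. Its brighter probe, on chromosome 13 at 38290121 to 38290180 (mm9, plus strand), had signals of 1256 and 1249 in the control pools, 1673 in the female and 4344 in the male Pparg-cKO pool. The log2 ratio was 0.32 and 1.88, a difference of 1.56 between the arrays and a mean of 1.10 ± 1.10 (SD, n = 2, limma adjusted p = 0.493).

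The spots of each array agreed far better than the arrays did for this probe, with a range of 0.25 to 0.39 for the female and of 1.69 to 1.97 for the male pair. The dimmer Dsp probe, whose sequence is given above, had signals of 4.17 and 7.81 in the control pools and of 3.77 and 13.0 in the Pparg-cKO pools. Its log2 ratio was -0.02 and 0.29. This dimmer probe lay near background in the Pparg-cKO pool of the female array and the control pool of the male array, so that its ratio says little. The Dsp values thus rest on the brighter probe.

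Evpl and Ppl encode envoplakin and periplakin, which partner each other at desmosomes and in the cornified envelope of the skin. Evpl had signals of 575 and 766 in the control pools and of 662 and 1867 in the Pparg-cKO pools, with log2 ratios of 0.16 and 1.38 (limma adjusted p = 0.575). Ppl had 868 and 964 against 1099 and 1771, with log2 ratios of 0.36 and 0.90 (limma adjusted p = 0.316). The female Evpl value in Pparg-cKO lay below the male control.

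**Figure D2:**
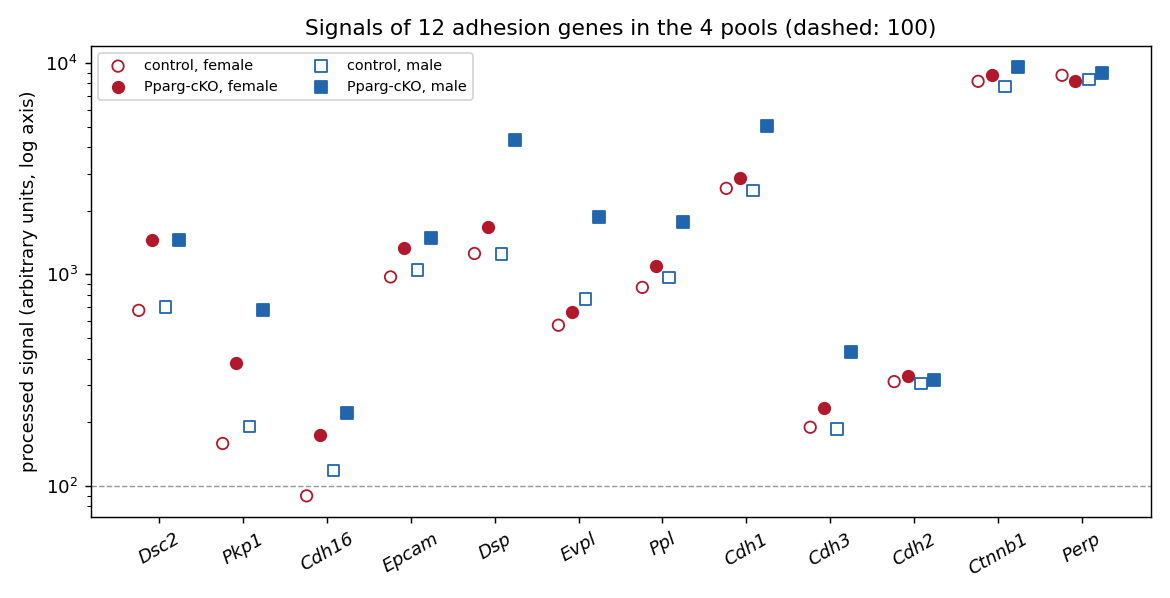
Processed signal (y axis, log scale, arbitrary units) of 12 genes in the 4 pools, controls as open and Pparg-cKO as filled symbols, the female array as circles and the male array as squares. For Dsc2 the pools of a genotype lie close together, whereas for Dsp, Evpl, Cdh1 and Cdh3 the male Pparg-cKO pool stands apart from the other pools. Levels of different genes cannot be compared.

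The classical cadherins of epithelia also had their larger values on the male array, and none passed the limma test or the fold rule. Cdh1 encodes E-cadherin, the cadherin of epithelial adherens junctions, and its signal was 2553 and 2499 in the control pools, 2871 in the female and 5012 in the male Pparg-cKO pool. The log2 ratio was 0.07 and 1.10 (mean 0.59 ± 0.73, SD, n = 2, limma adjusted p = 0.642). Cdh3, P-cadherin, which is enriched in basal epithelial cells, had 189 and 186 against 233 and 428 (log2 ratios 0.24 and 1.19, limma adjusted p = 0.494). Cdh1 and Cdh3 are neighbours on chromosome 8 in the GRCm38.p6 annotation.

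Cdh4, R-cadherin, was higher on the male array on its 2 brighter probes, with log2 ratios of 0.10 and 0.82 on the brightest and of 0.14 and 0.67 on the other. Cdh2, the N-cadherin of mesenchyme and nerve, had signals of 311 and 305 in the control pools and of 330 and 318 in the Pparg-cKO pools. Its log2 ratio was 0.04 and 0.16 (limma adjusted p = 0.893), and its second probe gave 0.29 and -0.16. The muscle cadherin Cdh15 was dim, at -0.10 and -0.08.

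The type II cadherins, many of them expressed in mesenchyme, vessels and nerve, gave small differences. Over the 12 tested, the median log2 ratio was 0.01 and -0.08. On both arrays 2 were higher and 2 lower, against 26.6% and 26.2% of all genes tested. None passed the limma test, against 0.382% of all genes tested called higher and 0.369% lower. None passed the fold rule either, against 0.792% higher and 1.05% lower of all genes bright enough. Cdh5, the VE-cadherin of endothelium, had signals of 1031 and 986 against 1121 and 1418 (log2 ratios 0.18 and 0.52, limma adjusted p = 0.558). The 8 endothelial markers of the list, which does not hold Cdh5, had medians of 0.01 and 0.11. Cdh11, a cadherin of mesenchyme, had 2743 and 2921 against 3034 and 2680, with log2 ratios of 0.10 and -0.14. Cdh7 was not well above background. The remaining mean log2 ratios ran from -0.22 for Cdh20 to 0.07 for Cdh9. The 2 probes of Cdh6 gave means of opposite sign, -0.08 and 0.01, as did those of Cdh18, 0.00 and -0.04.

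Among the atypical cadherins, Cdh16 passed the fold rule. Cdh16, or Ksp-cadherin, is a cadherin of kidney tubules, collecting ducts and the developing ureteric epithelium. Its signal was 89.7 and 118 in the control pools and 174 and 222 in the Pparg-cKO pools. The log2 ratio was 0.80 and 0.86 (mean 0.83 ± 0.04, SD, n = 2) or 1.77-fold, with a limma adjusted p of 0.058. The probe lies on chromosome 8 at 107138101 to 107138160 (mm9, minus strand), and its spots ranged from 0.70 to 1.04 and from 0.75 to 0.99.

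Of the 8 kidney tubule markers, 6 were tested, with medians of -0.12 and -0.38. On both arrays 5 of them were lower, against 26.2% of all genes tested, and none was higher, against 26.6%. Aqp1, the tested marker that was not lower on both arrays, had signals of 1595 and 1639 in the control pools and of 1578 and 1830 in the Pparg-cKO pools. Umod and Slc12a1 were not well above background. Among the lower markers Aqp2, Slc34a1 and Slc22a6 were dim, with signals of at most 28.1 in any pool. The part of kidney RNA in the Cdh16 values was not tested. Cdh13, T-cadherin, which lacks the usual membrane span, had log2 ratios of 0.15 and 0.33, Cdh26 of 0.11 and -0.05 and Cdh17 of 0.02 and -0.03. Cdh23 was not well above background.

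Perp and Epcam are membrane proteins of epithelial junctions. Epcam had signals of 973 and 1049 in the control pools and of 1332 and 1486 in the Pparg-cKO pools, with a log2 ratio of 0.41 and 0.48 (mean 0.44 ± 0.05, SD, n = 2, limma adjusted p = 0.273). It stayed under 1.5-fold on both arrays. Perp, a tetraspan protein of desmosomes and a target of p63, had 8746 and 8360 against 8208 and 8978, with log2 ratios of -0.13 and 0.14 and a limma adjusted p of 0.998.

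On the female array alone 3 of the 23 genes of sufficient signal were at least 1.5-fold higher, Dsc2, Pkp1 and Cdh16, against 1.25% of all such genes, and 0 were lower, against 1.90%. Of these, Cdh16 was of sufficient signal through the Pparg-cKO pool alone. On the male array alone 11 of 26 were, against 6.70% of all genes, and 0 were lower, against 2.00%. The 11 were Cdh1, Cdh3, Cdh4, Cdh16, Dsc2, Pkp1, Ctnnd1, Ctnnd2, Dsp, Evpl and Ppl, each by its brightest probe, and for Ctnnd1 a second probe had the opposite sign. Cdh4 and Ctnnd2 reached a signal of 100 on this array only in the Pparg-cKO pool, where they are high. Their signals were 76.9 and 42.4 in the male control pool, against 146 and 102, so that their place in this count is a description. The log2 ratio was higher on the male than on the female array for 30 of the 40 genes tested, or 75%, against 55.2% of all genes tested. With 1 array of each sex the difference between them was not tested.

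**Figure D3:**
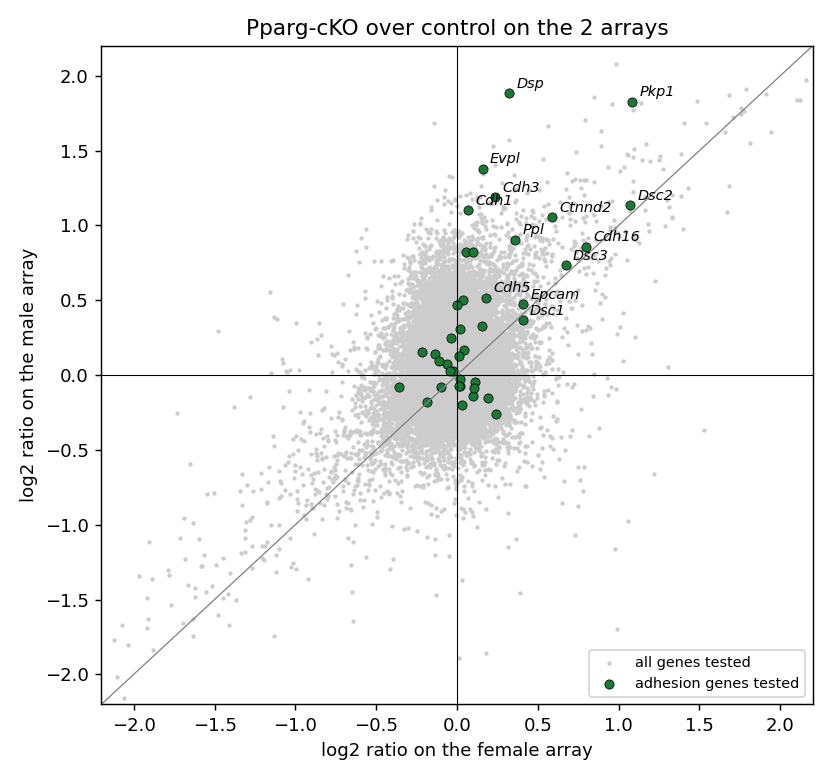
Log2 ratio of Pparg-cKO over control on the female array (x axis) and the male array (y axis) for all 22499 genes tested (grey, 38 of them outside the axes) and for the 40 adhesion genes (green), with the line of equality. Dsc2, Dsc3, Dsc1, Cdh16 and Epcam lie near the line, and Dsp, Evpl, Cdh3 and Cdh1 lie well above it.

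The urothelial markers differed between the arrays as well. All 14 were tested, and all had a higher log2 ratio on the male than on the female array, as did 55.2% of all genes tested, with medians of -0.39 and 0.20. Their summed signal, in which the brightest probes weigh most, was 132800 in the control and 93220 in the Pparg-cKO pool of the female pair. It was 115400 and 117500 in those of the male pair. The part of this in the male values of Cdh1, Cdh3 and the plakins was not tested. None of the 14 passed the limma test, and 8 had an unadjusted limma p below 0.05, against 8.51% of all genes tested. On both arrays 3 were higher and 6 lower, against 26.6% and 26.2% of all. Among the 8 were Krt18 (-1.04 and -0.54), Trp63 (-0.53 and -0.44) and Upk2 (-0.735 and -0.281), lower on both arrays. Foxa1 (0.165 and 1.06) and Elf3 (0.33 and 0.60) were among them too, higher on both. The urothelial keratin Krt19 (log2 ratios 0.71 and 1.29) was higher by the fold rule, and Upk1a (-1.91 and -1.12) and Upk1b (-1.30 and -0.73), uroplakins of the luminal plaque, were lower.

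Markers of other tissues that could lie in a dissected ureter were compared in the same way. The medians were -0.20 and 0.01 for smooth muscle, 0.09 and -0.02 for ureteric mesenchyme, -0.06 and 0.01 for Schwann cells and neurons, -0.06 and -0.27 for skeletal muscle and 0.07 on both arrays for epidermis. The epidermal list had 7 measured genes, all tested. Within it Lor, loricrin of the cornified envelope, was dim, with signals of 27.26 and 29.45 in the control pools and of 76.6 and 141.6 in the Pparg-cKO pools. Its log2 ratios were 1.14 and 1.82. The others did not follow it: Krt10 had 0.07 and 0.07, Krt1 0.04 and 0.63, and Sbsn 0.07 and 0.27. Krtdap (0.62 and -0.17), Calml3 (0.08 and -0.20) and Krt2 (-0.15 and 0.05) had opposite signs on the arrays. The part of skin-like RNA in the Pkp1 and Dsc1 values was not tested.

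Other genes of the same junctions gave no limma call. Of the 8 desmosome-associated genes, all tested, 7 were higher on both arrays, against 26.6% of all genes tested, with medians of 0.25 and 0.55, and 4 were higher at an unadjusted p below 0.05, against 4.31% of all genes. Among these were Kazn, the desmosomal protein kazrin, with log2 ratios of 0.37 and 1.17, Dst, the plakin dystonin, with 0.29 and 0.58, and Pnn, pinin, with 0.27 and 0.37. Plec, plectin, a plakin of hemidesmosomes, also had a larger ratio on the male array, with 0.06 and 1.20.

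Among 14 nectins and adherens junction linkers, all tested, 3 were higher and 3 lower on both arrays, against 26.6% and 26.2% of all genes tested, with medians of -0.12 and 0.26. At an unadjusted p below 0.05, 1 was higher, Ssx2ip (log2 ratios 0.31 and 0.33), and 0 were lower, against 4.31% and 4.20% of all genes. The nectin genes Pvrl1 (-0.41 and 0.76) and Pvrl2 (-0.22 and 0.60) had opposite signs on the arrays. Among 29 other genes of the cadherin superfamily, 28 were tested, with medians of 0.05 and 0.10 and 3 higher at an unadjusted p below 0.05, against the same 4.31%: Celsr2 (0.46 and 1.06) and Fat1 (0.20 and 0.76), large cadherins of planar polarity and growth control, and Clstn2 (0.43 and 0.92), a calsyntenin.

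The 8 transcription factors that can repress Cdh1 were all tested, and 0 had an unadjusted p below 0.05. Their medians were -0.01 and 0.11. Snai2, or Slug, had log2 ratios of 0.16 and 0.30, Zeb1 of 0.00 and 0.12, and Tcf3, or E2A, of -0.03 and 0.82.

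**Figure D4:**
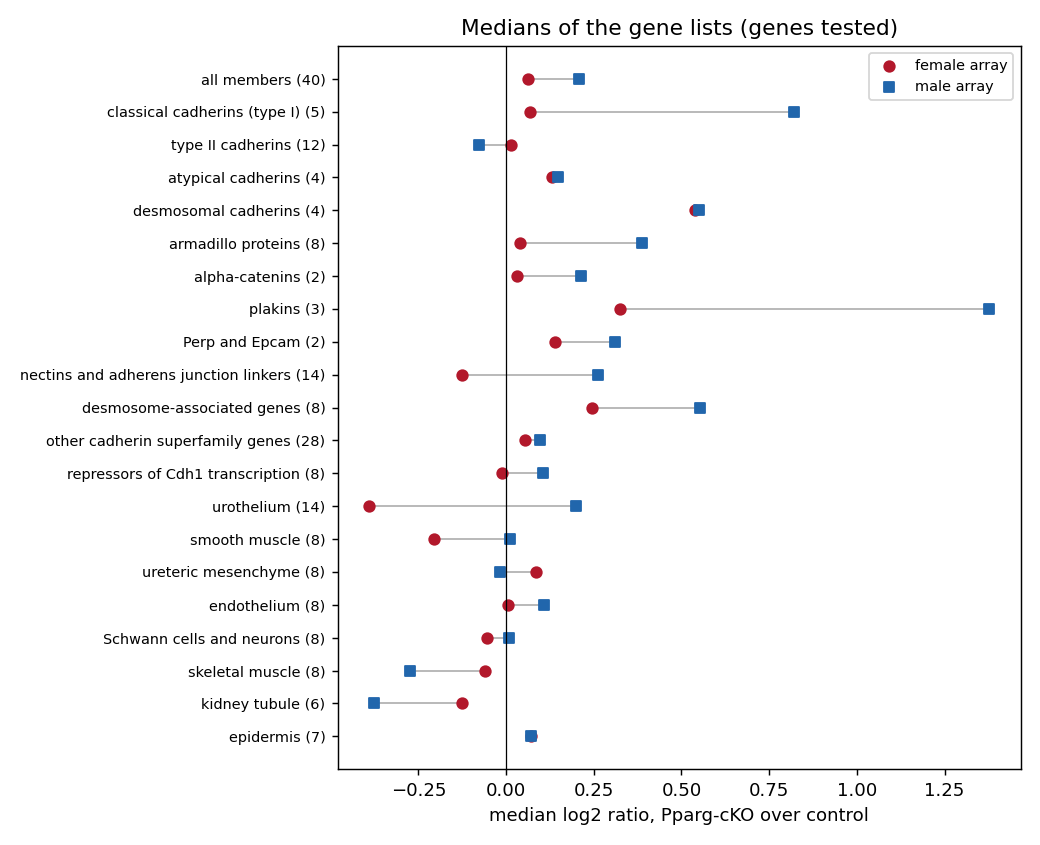
Median log2 ratio of Pparg-cKO over control (x axis) in each gene list, with the number of genes tested in brackets, on the female array (circles) and the male array (squares). The 4 desmosomal cadherins tested, of which Dsc1 and Dsc3 have a male control pool at background, have medians of 0.54 and 0.55, while plakins, with 0.32 and 1.38, and urothelial markers, with -0.39 and 0.20, shift between the arrays.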

How the data were processed

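Total RNA of pooled ureters was amplified once with T7 polymerase, labelled with AlexaFluor555 or AlexaFluor647 and hybridised to an Agilent whole mouse genome array with 4 spots a probe. The authors' scanner software, Agilent Feature Extraction 10.7.3.1 per the submitters' processing notes, gave the deposited intensity values (mean, background and processed signals), log10 ratios and flags. A further deposited table holds the authors' signed fold ratios per probe, used here as an alternative. The genes and lists were chosen with earlier results of these data known.

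Here (R 4.3.3, limma 3.58.1) mean signals were corrected by normexp with an offset of 50 and log2 ratios were loess-normalised within arrays, with control spots at weight 0. Outlier spots were dropped before spots of a probe were averaged, and the brightest probe stood for its gene. Ratios were turned to the deposited direction, to which red over green correlated at 0.905 and -0.932 over probes. The mean of both arrays was tested with limma, with 1 residual and 4 prior degrees of freedom. The script was tested on simulated data. All 48 genes are reported by role, in full those past a threshold and Cdh1, Cdh2, Cdh3, Dsp, Jup, Perp, Epcam and Ctnnb1. Alternatives were other background corrections, centring, probe rules, filters, thresholds and each array alone. The number of arrays limits the precision. The values of 1 gene of these lists are not reported here.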

Additional observations from a re-analysis of the deposited data

How the results depend on the processing

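The same 3 genes, Cdh16, Dsc2 and Pkp1, passed the fold rule with scanner-processed signals, normexp without an offset, median centring and the deposited table. With the median over all probes no other gene of the group joined them. These 3 have 1 probe each, so that their own ratios could not change in that setting. The filter on dim probes plays no part in the fold rule, so that its removal could not change this result. A signal threshold of 200 left 2 of them, and so did a fold threshold of 2. With each array alone the count ranged from 3 to 11, 11 on the male array, and the median log2 ratio of the 40 genes from 0.06 to 0.21, while 0 genes of the group were called lower under any setting run.

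The limma calls depended on the processing. The number of adhesion genes called higher was 4 with scanner-processed signals (Dsc1, Dsc2, Dsc3 and Pkp1, with the male control pool at background for Dsc1 and Dsc3), 6 with normexp without an offset (these with Cdh16 and Ctnnd2), 2 with median centring (Dsc2 and Pkp1), 2 with the median over all probes (Cdh16 and Dsc2) and 0 with the deposited table, where 10 of the 40 had an unadjusted p below 0.05, against 9.34% of all genes. Over all genes 169 were called in the reported setting, 243 with scanner-processed signals, 571 without an offset, 173 with median centring, 171 with the median over all probes, 94 without the filter on dim probes and 0 with the deposited table, where the adjusted p of Dsc2 was 0.533 and its log2 ratio 1.08. The cause was not tested. The median of the alpha-catenins turned from 0.122 to -0.027 without the filter, which added Ctnna3. Without the filter the median of the desmosomal cadherins was 0.10, since 5 desmogleins at background entered, and it was 1.20 with scanner-processed signals.

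The pairing entered the test through the ratios, since each array compares a pair of pools of the same sex, and the arrays form a single group. With a single array there is no residual spread and no limma test. Dim probes, such as those of Jup, Dsc1 and Dsc3, limit what can be said of these genes, and opposite changes of at least 1.2-fold on both arrays were found for 0 of the 40 genes.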
